A study of Mus musculus with 17 samples.

Results

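The knockout of the long non-coding RNA *U90926* was examined in fat of male mice. The tissue was pWAT, the perigonadal depot of visceral white fat. All 7 male libraries of the series were used, 4 from U9-KO mice and 3 from WT mice, out of 17 libraries of both sexes. They were chosen by the sex and genotype in their labels, not by a measured value. The mice were littermates on the C57BL/6J background from crosses of heterozygous parents, fed a standard diet and sampled at 16 weeks of age according to the methods. U9-KO mice were homozygous for a deletion that removes every exon of *U90926*. The deletion is not described as limited to a cell type, so effects in fat cells and in immune cells cannot be told apart. Each library came from 1 mouse.

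White fat stores triglyceride in adipocytes, which take up fatty acids or build them from glucose under the control of insulin and the SREBP transcription factors. The tissue also holds blood vessels, progenitor cells, macrophages, lymphocytes and small lymphoid clusters. In fat of lean mice, resident macrophages and B-1 cells, a self-renewing kind of B cell that makes natural antibodies, are part of the normal tissue. *U90926* itself is a transcript of chromosome 5 (GRCm38, 92209893 to 92215408, minus strand) that has been studied in immune cells and in adipocyte differentiation.

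The unit throughout is the normalized count, the number of reads on a gene divided by the authors' size factor for that library and rounded. Its sum over genes was between 22024872 and 23916425 in the 7 libraries. From the spacing of the low values the reads on genes were estimated at 19700000 to 27600000 per library. The adipocyte genes *Adipoq*, *Plin1*, *Fabp4*, *Lep*, *Cidec* and *Lipe* together gave between 386820 and 506999 normalized counts. The 7 markers of epididymis and testis added up to at most 4 in any library. The 3 lymph node markers summed to 22 to 44 in WT and 10 to 43 in U9-KO, with *Glycam1* and *Madcam1* at 2 or less. *U90926* had 1 normalized count in WT male 2 and 0 in the other 6 libraries, so its loss could not be seen at this depth and the counts did not check the genotype labels.

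For each gene the following were taken: the difference between group means on the log2(normalized count + 1) scale with its standard error (SE), limma's p, and whether the groups overlapped. For genes with low counts this scale shrinks the difference. Of 55401 genes, 16564 had a mean of at least 10 and were tested. With limma and Benjamini-Hochberg adjustment 0 of them (0%) passed 0.05. The lowest limma adjusted p = 0.539 was shared by 522 genes. An unadjusted p under 0.05 was found for 1390 genes (8.39%), 631 of them higher in U9-KO (3.81%) and 759 lower (4.58%). All 4 U9-KO values lay above all 3 WT values for 728 genes (4.4%) and below them for 737 (4.45%). The genes were about evenly split in direction, with 8326 higher and 8238 lower in U9-KO and a median difference of 0.0011. Scaling the libraries to equal sums shifted that median to -0.038, and the share of higher genes among those at an unadjusted p under 0.05 went from 45.4% to 28.4%. Most differences were small, since the 5th and 95th percentiles were -0.47 and 0.38. The percentages in this paragraph are the background against which the counts for groups of genes are given below. No gene named here passed the adjusted threshold, so every count and value that follows is a description of these 7 mice.

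The WT mice differed among themselves about as much as from the U9-KO mice, and the U9-KO mice differed less among themselves. The median absolute log2 difference between 2 mice was 0.195 to 0.282 within WT, 0.138 to 0.168 within U9-KO and 0.166 to 0.257 between the genotypes. WT male 2 had the highest value of all 7 mice in 24.0% of genes and the lowest in 23.9%. WT male 1 was the highest in 18.3% and the lowest in 18.0%, and each U9-KO mouse was an extreme less often, between 9.61% and 13.7%. The standard deviation was larger in WT than in U9-KO for 62.6% of genes. On the first principal component, with 29.1% of the variance, the 3 WT mice were at 25.5, -48.3 and -17.7 and the U9-KO mice at 4.53 to 23.9, so that the WT mice lay on both sides of the U9-KO mice. On the second component, with 18.7%, WT male 1 was at 39.3 and WT male 2 at 15.0, and the other mice were at -20.7 to -4.57. Leaving out WT male 1 or WT male 2 moved many of the counts below, often in opposite directions. The background for lower and higher genes is 9.22% and 9.08% without WT male 1, and 4.19% and 3.18% without WT male 2.

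**Figure D1:**
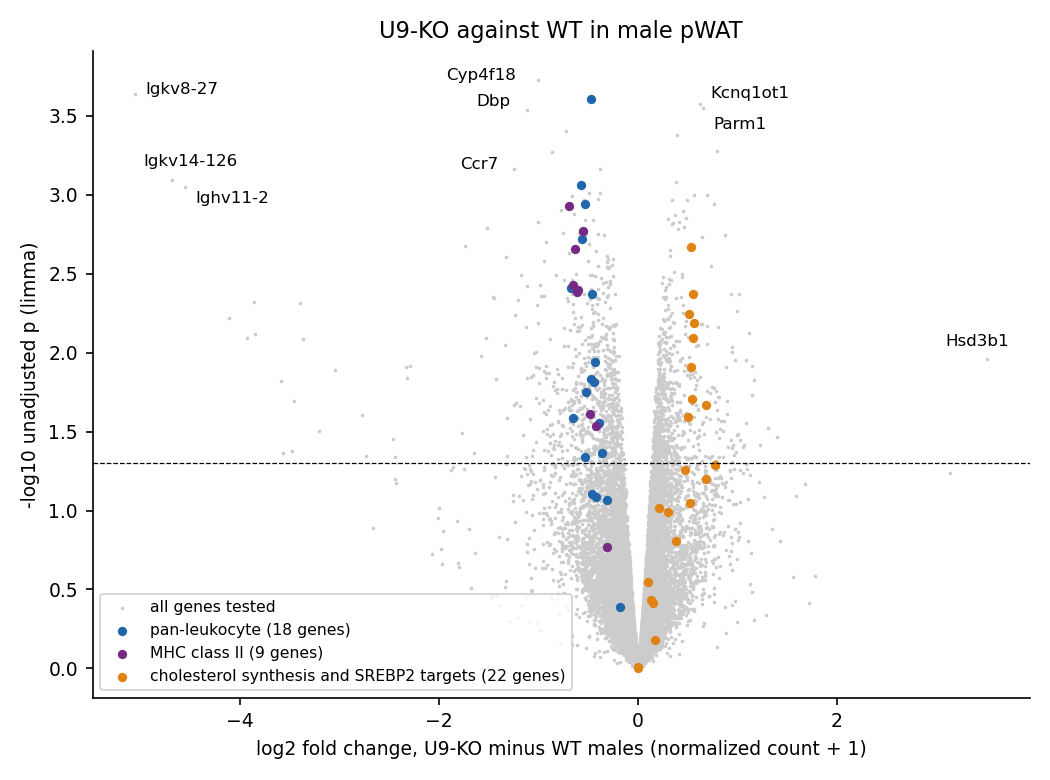
Each point is 1 of 16564 genes in male pWAT. The x axis is the log2 difference between 4 U9-KO and 3 WT mice and the y axis is -log10 of the unadjusted limma p, with a dashed line at 0.05. Pan-leukocyte (18 genes) and MHC class II (9 genes) members lie to the left of 0 and 21 of 22 cholesterol synthesis genes to the right, while antibody segments such as *Igkv14-126* are farthest to the left.

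Genes of white blood cells were lower in U9-KO males. All 18 members of a list of genes that leukocytes of every kind express were lower in U9-KO, with a median difference of -0.47, and 14 had an unadjusted p under 0.05 against a background of 4.58% for lower genes. For 9 of them the groups did not overlap. In *Laptm5*, which encodes a lysosomal membrane protein of blood cells, the WT mice had 3587, 4740 and 4393 normalized counts and the U9-KO mice 2961, 3058, 2405 and 2963. Every WT mouse was above every U9-KO mouse, and the U9-KO mean was 67.1% of the WT mean (log2 difference -0.57 ± 0.12 SE). *Arhgap45*, a GTPase-activating protein of leukocytes, had the smallest p of the list. It had 1376, 1558 and 1512 in WT and 1041, 1187, 1018 and 1025 in U9-KO (-0.47 ± 0.08 SE, limma adjusted p = 0.539). *Coro1a*, an actin-binding protein of leukocytes named after its values were seen, was at 1057, 1247 and 1018 in WT and at 685, 839, 687 and 858 in U9-KO. *Ptprc*, the gene for CD45, overlapped between groups, with 1143, 1729 and 1450 in WT and 1046, 1103, 919 and 1152 in U9-KO.

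WT male 2 had the highest summed count of this list, 19895, against 13899 in WT male 1, 16373 in WT male 3 and 10242 to 12931 in U9-KO. When WT male 2 was left out all 18 genes were still lower, the median difference was -0.32, and 8 had an unadjusted p under 0.05 (background 4.19%). Without WT male 1 the count was 16 (background 9.22%). In whole tissue, fewer leukocytes and less RNA per leukocyte cannot be told apart. In females the median of the same genes was 0.09, with 5 mice in each group.

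The genes of MHC class II, which presents peptides from outside the cell to T cells, were all lower in U9-KO. The 9 tested members had a median difference of -0.60, 8 had an unadjusted p under 0.05 and for 7 the groups did not overlap. *Ciita*, the transcriptional coactivator that switches these genes on, was at 346, 371 and 427 in WT males and at 195, 242, 218 and 294 in U9-KO males. The U9-KO mean was 62.2% of the WT mean (-0.69 ± 0.15 SE, limma adjusted p = 0.539). *Cd74*, the invariant chain that guards the peptide groove, was at 12056, 16549 and 14350 in WT and 7374, 11032, 7825 and 10516 in U9-KO (-0.65 ± 0.17 SE). U9-KO males 1 and 3 were lowest in both genes, and the highest U9-KO mouse was below the lowest WT mouse. The chain genes *H2-Aa*, *H2-Ab1* and *H2-Eb1* differed by -0.62 ± 0.16, -0.64 ± 0.15 and -0.60 ± 0.16 (SE). The peptide-loading subunit *H2-DMb1* differed by -0.56 ± 0.13 (SE), with 502, 586 and 608 in WT and 347, 444, 333 and 420 in U9-KO. The exceptions were *H2-DMa* and *H2-DMb2*, whose groups overlapped. With WT male 2 left out 6 of the 9 had an unadjusted p under 0.05, and without WT male 1 all 9 had. In females the list's median was 0.09.

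The promoters of these genes are shown because MHC class II genes share an upstream module that includes the Y box, bound by NF-Y. Its letters are ATTGG, or on the other strand CCAAT. The 250 bases before the RefSeq start were available for 6 of the 9 members, and all 6 held ATTGG on either strand in at least 1 window. By window, 6 of their 7 held it, against 33.8% of 32851 such windows of all genes. The windows below are from GRCm38.p6, written 5′ to 3′ on the gene's strand, and capitals mark each match. *H2-DMb1* is at chr17:34152941-34153190 (plus strand), *H2-Aa* at chr17:34287824-34288073 (minus strand) and *H2-Eb1* at chr17:34305617-34305866 (plus strand). A match is a description of letters and not evidence of a bound site.
H2-DMb1: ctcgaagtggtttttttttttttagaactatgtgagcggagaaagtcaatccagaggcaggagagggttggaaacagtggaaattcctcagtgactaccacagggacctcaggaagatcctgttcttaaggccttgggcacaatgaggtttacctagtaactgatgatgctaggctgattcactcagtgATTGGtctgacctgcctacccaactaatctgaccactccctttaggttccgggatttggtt
H2-Aa: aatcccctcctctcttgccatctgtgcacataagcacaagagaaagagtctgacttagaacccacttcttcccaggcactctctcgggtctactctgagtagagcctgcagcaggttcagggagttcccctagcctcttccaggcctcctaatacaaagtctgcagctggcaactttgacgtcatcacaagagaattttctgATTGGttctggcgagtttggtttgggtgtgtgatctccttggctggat
H2-Eb1: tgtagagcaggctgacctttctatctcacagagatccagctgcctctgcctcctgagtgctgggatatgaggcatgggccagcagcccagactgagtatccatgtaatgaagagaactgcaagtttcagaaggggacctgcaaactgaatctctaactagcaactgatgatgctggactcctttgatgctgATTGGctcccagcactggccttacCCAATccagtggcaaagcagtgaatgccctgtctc

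B cell genes were lower as well. Of 21 members 19 were lower in U9-KO and 10 had an unadjusted p under 0.05, with a median of -0.69. *Cd79a*, a signalling chain of the B cell receptor that was named after its values were seen, was at 131, 208 and 106 in WT and at 70, 72, 77 and 64 in U9-KO. The U9-KO mice lay close together and below all WT mice, at 47.7% of the WT mean. The transcription factor *Pax5* was at 41, 99 and 48 in WT and 23, 27, 33 and 33 in U9-KO. The members that were not lower were *Ebf1* (0.01) and *Zbtb20* (0.11), which other cells of fat also express. *Ciita* is in this list as well as in the MHC class II list. The count of B cell genes at an unadjusted p under 0.05 rested in part on WT male 2, since without it 2 of 21 members had an unadjusted p under 0.05 and the median was -0.41. Without U9-KO male 3 the count was 6.

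Of the genes with the largest differences, several were antibody variable segments, which mark B cell clones. A pair of segments stood out. *Ighv11-2* (heavy chain) and *Igkv14-126* (light chain) are known as the segments that B-1a cells combine in antibodies against phosphatidylcholine. *Ighv11-2* was at 245, 2397 and 106 in WT and at 30, 7, 25 and 12 in U9-KO (-4.55 ± 0.94 SE, limma adjusted p = 0.539). *Igkv14-126* was at 393, 3096 and 137 in WT and at 61, 11, 15 and 17 in U9-KO (-4.68 ± 0.95 SE). Both segments put the mice of each genotype on separate sides and had WT male 2 far above the rest. As a share of all heavy chain V counts of the same mouse, *Ighv11-2* made up 10.7%, 74.3% and 17.6% in WT and 8.65%, 0.657%, 2.84% and 0.741% in U9-KO. The share of *Igkv14-126* among light chain V counts was 9.94%, 65.3% and 16.4% in WT and 8.92%, 0.547%, 1.14% and 0.771% in U9-KO. The shares were also apart by genotype, though U9-KO male 1 came close to WT male 1. They reuse the counts by which these segments were picked, so they are not further support. Leaving out WT male 2 gave differences of -3.25 and -3.44. Among females the shares overlapped, with *Ighv11-2* at 4.48% to 12.8% in WT and 0.327% to 6.82% in U9-KO.

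*Igkv8-27*, *Ighv7-1* and *Ighv14-2* were the other segments among the 5 most negative differences. *Igkv8-27* had 36, 172 and 12 in WT and 0, 2, 0 and 0 in U9-KO. *Ighv7-1* had 104, 101 and 7 in WT and 0, 13, 0 and 2 in U9-KO. *Ighv14-2* had 29, 97 and 1 in WT and 1, 0, 0 and 0 in U9-KO. Their fitted folds depend on the pseudocount and are not given. Reads can be split between similar segments, so single segments are uncertain. Of 163 light chain segments 37 passed the filter on the mean, and of 185 heavy chain segments 33 did. A segment high in WT mice alone could pass it, as *Igkv8-27* did, so the counts by direction are not separate support. Of the 37 light chain segments 32 were lower in U9-KO and 12 had an unadjusted p under 0.05. Of the 33 heavy chain segments 27 were lower and 7 had such a p. Without WT male 1 these counts were 5 and 5, with medians of -0.76 and -0.25 in place of -1.42 and -1.01, and without WT male 2 they were 8 and 5. Without U9-KO male 1 the heavy chain count was 4. With array weights the light chain median turned to 0.12 and that of the antibody constant regions from -0.82 to 0.40. The antibody constant regions were not lower throughout: *Ighm*, the IgM heavy chain, was at 22352, 17275 and 10615 in WT and 15227, 16668, 13359 and 26058 in U9-KO. *Jchain*, which links IgM and IgA, was at 1575, 1491 and 301 in WT and 214, 616, 379 and 893 in U9-KO. WT male 3, low in both, overlapped with the U9-KO mice. In females the differences of the variable segments ran the other way, with medians of 1.65 for heavy and 1.85 for light chain segments.

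Genes of lymphoid clusters and of immune cell traffic showed the same direction. *Ccr7*, the chemokine receptor that guides dendritic cells and T cells to lymphoid tissue, was at 49, 41 and 35 in WT and at 17, 19, 14 and 18 in U9-KO (-1.24 ± 0.25 SE). Every U9-KO mouse was below every WT mouse, at 40.8% of the WT mean. Of the list's 9 tested members 7 were lower and 4 had an unadjusted p under 0.05, namely *Ccr7*, *Ltb*, *Cxcl13* and *Cxcr5*. The count was 1 without WT male 1 and 2 without WT male 2 or U9-KO male 4. *Cxcl13*, the chemokine that draws B cells into clusters, was at 298, 2157 and 64 in WT and 37, 141, 42 and 68 in U9-KO, so that the groups overlapped and WT male 2 was far above the others. In the T and NK cell list 18 of 19 members were lower, and with all mice *Cd4* was the one member with an unadjusted p under 0.05, with 58, 82 and 48 in WT and 29, 25, 16 and 39 in U9-KO. The list's count was 5 when WT male 2 was left out, and 6 when U9-KO male 4 was. Its median of -0.47 went to -0.81 without WT male 2 and to -0.19 without WT male 1. The defining T cell markers *Cd3d*, *Cd3e* and *Cd3g* summed to 129, 47 and 107 in WT and 47, 120, 41 and 72 in U9-KO, which overlapped.

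Several myeloid genes were lower in U9-KO. *Cyp4f18*, a leukotriene-metabolising enzyme of myeloid cells, had the smallest p of all genes, with 105, 121 and 115 in WT and 50, 54, 54 and 68 in U9-KO (-1.0 ± 0.17 SE, limma adjusted p = 0.539). *Mir142hg*, the host transcript of a microRNA of blood cells, was at 92, 89 and 84 in WT and 46, 55, 43 and 49 in U9-KO. Of 16 resident macrophage genes 15 were lower in U9-KO, with a median of -0.36, and 5 had an unadjusted p under 0.05. *Mertk*, the receptor by which macrophages recognise dying cells, was at 1337, 1554 and 1518 in WT and 1155, 915, 1233 and 1175 in U9-KO. *Csf1r*, the receptor macrophages need to survive, was at 4012, 6263 and 4399 in WT and 3156, 3844, 2822 and 3926 in U9-KO. With WT male 2 left out the macrophage median was -0.17 and 3 members had an unadjusted p under 0.05, and with WT male 1 left out it was -0.52 and 10 had. The lipid-associated macrophage list, whose genes mark macrophages of obese fat, had 12 of 15 lower and 0 at an unadjusted p under 0.05 in limma's test, with 5 when WT male 1 was left out.

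Sensors and effectors of innate immunity differed in the same direction. Of 18 genes of Toll-like receptor signalling 13 were lower and 5 had an unadjusted p under 0.05, namely *Nfkbia*, *Irf5*, *Tlr7*, *Tlr1* and *Tlr9*. There were 2 without WT male 2. *Nfkbia*, the inhibitor that NF-kB itself induces, was at 1153, 1290 and 1351 in WT and 990, 1007, 995 and 1080 in U9-KO (-0.31 ± 0.08 SE). Of 18 complement genes 17 were lower, and 5 of these had an unadjusted p under 0.05, including *C1qb* (-0.45 ± 0.13 SE), which the macrophage list also holds. Without WT male 1 there were 9, and without WT male 2 or U9-KO male 3 there were 3. The exception, *Masp1*, a protease of the lectin pathway, was higher in U9-KO (0.75 ± 0.25 SE). Among 22 interferon-stimulated genes 21 were lower, with a list median of -0.17, but 0 had an unadjusted p under 0.05 in limma's test. Of 10 genes that are raised in fat of obese mice 9 were lower and 0 had an unadjusted p under 0.05 in limma's test (3 lower and 1 higher without WT male 1). *Saa3*, an acute phase protein of fat, was at 685, 494 and 345 in WT and 215, 539, 249 and 75 in U9-KO.

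**Figure D2:**
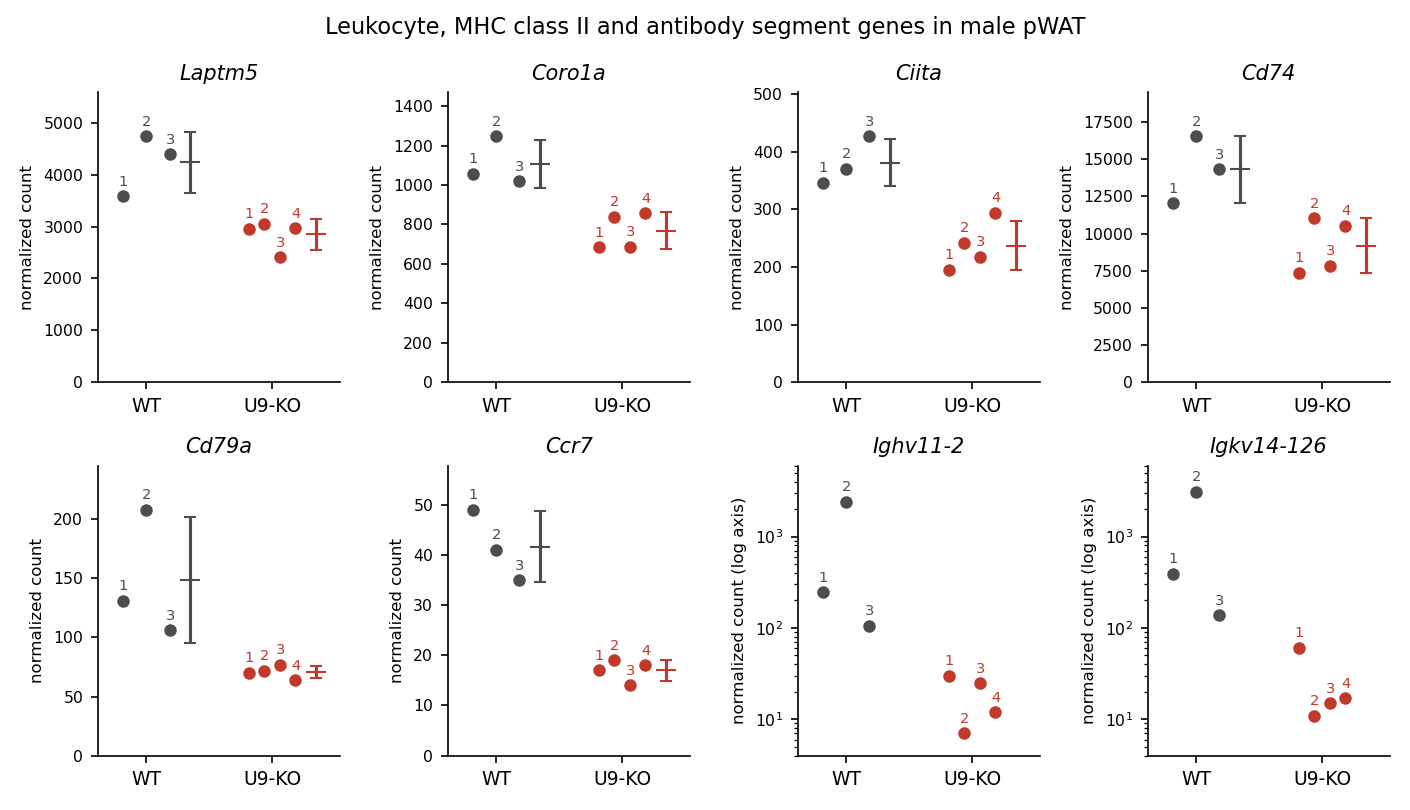
Normalized counts of 8 immune genes in 3 WT (grey) and 4 U9-KO (red) male mice, with replicate numbers. Bars beside the points are mean ± SD, and the panels of *Ighv11-2* and *Igkv14-126* have a log axis and no bar. In all 8 genes the U9-KO mice lie below the WT mice, and WT male 2 is highest in 6 of them.

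Lipid synthesis genes were higher in U9-KO males, and here WT males 2 and 3 were low. In cholesterol synthesis, the pathway that SREBP2 drives, 21 of 22 tested members were higher in U9-KO, with a median of 0.51. Of these 9 had an unadjusted p under 0.05, against a background of 3.81% for higher genes. For 4 of the 22 the groups did not overlap, and for the other members they did. *Dhcr7*, the last enzyme of the pathway, was at 426, 334 and 304 in WT and at 535, 474, 478 and 550 in U9-KO (0.53 ± 0.13 SE, limma adjusted p = 0.539). Every U9-KO mouse was above every WT mouse. *Insig1*, which holds SREBP in the endoplasmic reticulum and is itself an SREBP target, was at 9156, 5151 and 3414 in WT and 13177, 6260, 11698 and 7727 in U9-KO. Its groups overlapped, since WT male 1 was above U9-KO males 2 and 4. Members named after their values were seen were *Idi1* (0.56 ± 0.15 SE), *Lss* (0.52 ± 0.14) and *Sqle* (0.55 ± 0.16), which make isoprenoid units, lanosterol and squalene epoxide. The single member that was not higher was *Scap* (-0.0011). Without WT male 2 the median was 0.45 with 7 members at an unadjusted p under 0.05 (background 3.18%), and without WT male 1 it was 0.67 with 15 (background 9.08%). In females the median of the same genes was 0.61, and a difference between the sexes was tested only gene by gene, as given at the end.

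In *Hmgcs1*, which makes the HMG-CoA that the pathway starts from, WT males had 3501, 3765 and 4458 and U9-KO males 7697, 5239, 5642 and 4054, of which U9-KO male 4 was below WT male 3. Its promoter is shown because it was the only member window of the list with the sterol element TCACNCCAC (or its reverse complement). It was 1 of 19 windows of 15 members, against 1.05% of all windows. The 250 bases before its start lie at chr13:119690101-119690350 of GRCm38.p6 (plus strand), with the match in capitals.
Hmgcs1: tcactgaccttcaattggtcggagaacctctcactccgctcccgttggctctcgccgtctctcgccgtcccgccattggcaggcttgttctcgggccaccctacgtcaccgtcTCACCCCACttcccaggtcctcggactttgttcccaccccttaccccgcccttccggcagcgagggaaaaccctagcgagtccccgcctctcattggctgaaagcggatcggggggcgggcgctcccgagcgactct

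Of the lipid synthesis lists, de novo lipogenesis had the widest spread among mice. Of 16 tested genes 15 were higher in U9-KO, with a median of 0.61, and 3 had an unadjusted p under 0.05, namely *Acaca*, *Elovl6* and *Pnpla3*. *Acaca*, which makes malonyl-CoA for fatty acid synthesis, was at 32822, 7848 and 15518 in WT and 30581, 33073, 39855 and 25261 in U9-KO (1.0 ± 0.40 SE). *Fasn*, the fatty acid synthase, named after its values were seen, was at 308595, 47950 and 102942 in WT and 203465, 219208, 233541 and 261989 in U9-KO. WT male 1 lay within the U9-KO range in *Acaca* and above it in *Fasn*, and WT male 2 was lowest in both. *Scd1*, the desaturase, was the exception, with 536320, 883534 and 597501 in WT and 555907 to 639963 in U9-KO. The list score, the median over its genes of the deviation from the mean of the 7 mice, was 0.59, -1.13 and -0.54 in WT and 0.11 to 0.38 in U9-KO. The whole spread of the U9-KO mice therefore lay inside that of the WT mice. Without WT male 2 the median was 0.22 and 0 genes had an unadjusted p under 0.05 in limma's test. Without WT male 1 it was 1.13 and 14 had, and leaving out any other mouse gave 0 to 2.

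**Figure D3:**
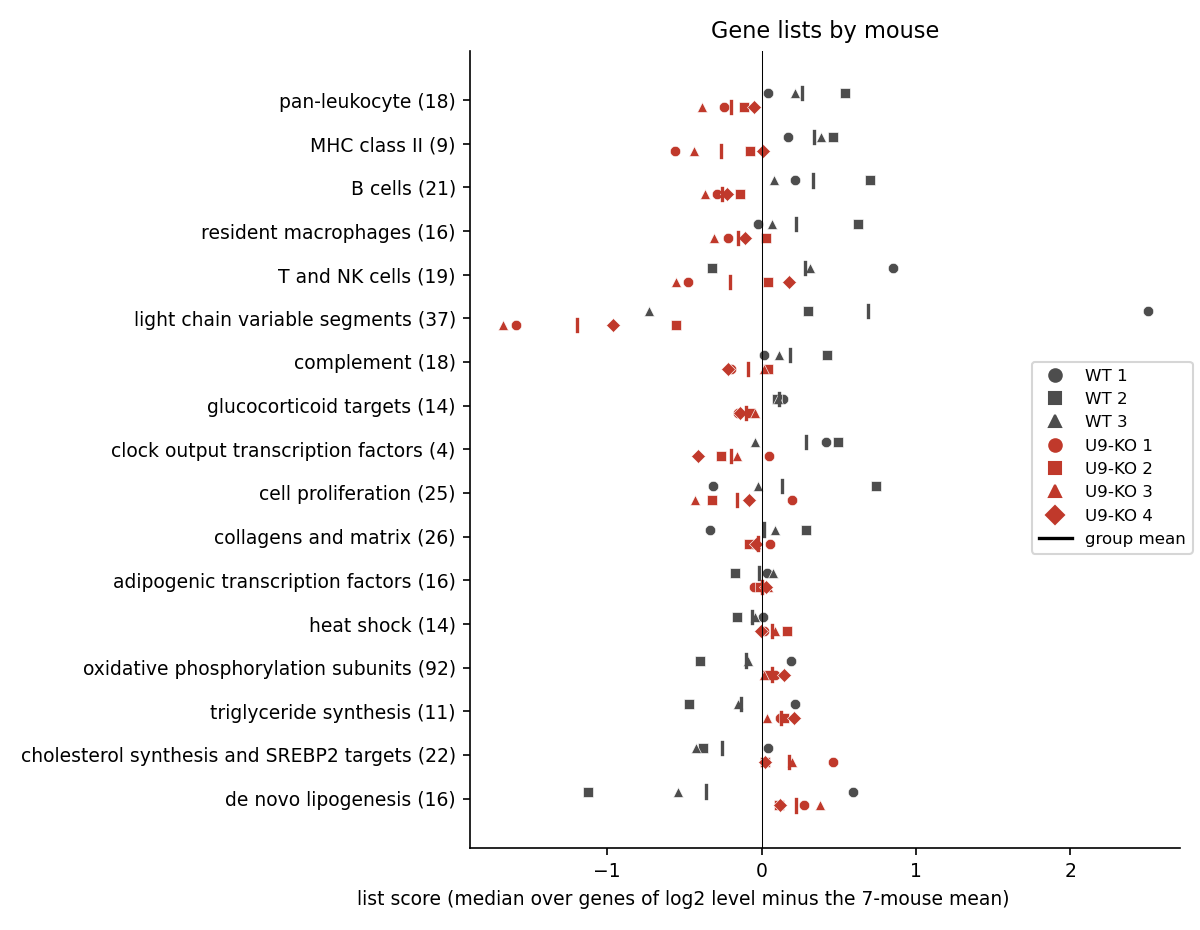
List scores of 17 gene lists in each male mouse. The x axis is the median over the tested genes of a list (number in parentheses) of log2(normalized count + 1) minus the mean of the 7 mice, and vertical bars are group means. WT males 1 and 2 lie at opposite ends for lipogenesis (0.59 and -1.13), and U9-KO scores lie below all WT scores for the pan-leukocyte, MHC class II, B cell and glucocorticoid lists.

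Genes that follow lipid synthesis had smaller differences. Of 11 triglyceride synthesis genes 10 were higher in U9-KO, and *Lpin1*, *Dgat2* and *Gpd1* had an unadjusted p under 0.05. The count was 6 without WT male 1 and 1 without WT male 2 or U9-KO male 1, 2 or 4. *Lpin1*, which makes diacylglycerol, was at 9706, 8109 and 9205 in WT and 13029, 11283, 10461 and 10465 in U9-KO (0.33 ± 0.11 SE). *Plin2*, a lipid droplet coat protein, was at 6075, 4546 and 5103 in WT and 7235, 6952, 6569 and 6459 in U9-KO (0.39 ± 0.10 SE). *Pik3r1*, the regulatory subunit of the insulin-responsive PI3-kinase, was at 17346, 10950 and 10826 in WT and 18511, 21475, 17706 and 18914 in U9-KO (0.59 ± 0.17 SE), and was the only one of 16 insulin signalling genes with an unadjusted p under 0.05 (4 higher and 3 lower without WT male 1). In these 3 genes all U9-KO mice were above all WT mice.

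Mitochondrial genes were slightly higher. Of 92 subunits of oxidative phosphorylation 81 were higher in U9-KO, with a median of 0.16, and 10 had an unadjusted p under 0.05. *Cox6b1*, a subunit of complex IV, was at 3723, 2789 and 3033 in WT and 4169, 3876, 3689 and 4283 in U9-KO (0.34 ± 0.11 SE). The direction depended on WT male 2, whose list score was -0.40, against 0.19 in WT male 1, -0.09 in WT male 3 and 0.02 to 0.14 in U9-KO. Without it the median was 0.01, and 3 genes were higher and 5 lower at an unadjusted p under 0.05. Without WT male 1 the median was 0.30 and 60 of 92 were higher at such a p (background 9.08%), and leaving out any other mouse gave 5 to 7 higher genes. Fatty acid oxidation (15 of 20 higher) and branched-chain amino acid breakdown (17 of 19 higher) had 0 genes at an unadjusted p under 0.05 in limma's test, and their medians without WT male 2 were -0.00094 and 0.0089. Without WT male 1 they were 0.26 and 0.27, with 10 and 9 genes higher at an unadjusted p under 0.05.

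Genes of adipocyte identity and hormones had medians near 0. The 16 adipogenic transcription factors had a median of 0.01, with 9 higher and 7 lower. At an unadjusted p under 0.05 there were 2, both lower and with groups apart. Of these *Cebpd*, an early factor of adipogenesis, was at 552, 697 and 589 in WT and 491, 499, 477 and 378 in U9-KO (-0.41 ± 0.12 SE). The other, *Klf9*, also counted among the glucocorticoid targets, was at 3684, 3656 and 3709 in WT and 2980, 3147, 3201 and 3219 in U9-KO (-0.23 ± 0.06 SE). *Adipoq*, the gene for adiponectin, was at 64483, 43506 and 64789 in WT and 59731, 63341, 59648 and 56789 in U9-KO. *Lep*, the gene for leptin, was at 23259, 35738 and 28407 in WT and 37426, 20328, 25196 and 33761 in U9-KO. The differences were 0.08 ± 0.17 and -0.02 ± 0.23 (SE). Of 12 adipokines and of 10 thermogenic genes 0 had an unadjusted p under 0.05 in limma's test, and without WT male 1 each list had 3 higher and 1 lower at such a p. The beige fat marker *Ucp1* did not exceed 2 normalized counts.

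Clock genes formed another group. *Dbp*, a transcription factor whose RNA swings strongly over the day under the clock, was at 317, 482 and 305 in WT and at 157, 165, 211 and 136 in U9-KO. The U9-KO mean was 45.4% of the WT mean (-1.12 ± 0.20 SE, limma adjusted p = 0.539). Its relative *Tef* was at 3233, 3666 and 3566 in WT and 2743, 2417, 2871 and 2218 in U9-KO (-0.45 ± 0.10 SE). *Per3*, a period gene, was at 1476, 2100 and 1813 in WT and 1236, 1199, 1168 and 913 in U9-KO (-0.66 ± 0.14 SE). In all 3 genes every U9-KO mouse was below every WT mouse. *Nr1d2*, a repressor of the clock, was at 947, 1534 and 1305 in WT and 654, 812, 977 and 637 in U9-KO. *Arntl*, the activator whose RNA peaks opposite to *Dbp*, was at 998, 564 and 781 in WT and 1172, 961, 908 and 1131 in U9-KO (0.45 ± 0.18 SE). These were the 3 of 17 core clock genes with an unadjusted p under 0.05, and *Per1*, *Per2* and *Nr1d1* overlapped. The labels give no time of day of collection, and its part in these differences was not tested. In females *Dbp* differed by 0.06 ± 0.34 and *Per3* by 0.33 ± 0.15 (SE).

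The clock activators bind the E-box CACGTG. Within 250 bases before a RefSeq start this motif, its own reverse complement, was found for 5 of 17 clock genes with a window, *Bhlhe41*, *Ciart*, *Cry1*, *Per1* and *Tef*. By window, 6 of 25 windows of clock genes held it, against 6.02% of all windows. Of *Dbp*, *Tef* and *Per3*, whose groups did not overlap, *Tef* held these letters and the windows of the other two did not. *Tef* has more than 1 RefSeq start, and its first window, at chr15:81802423-81802672 of GRCm38.p6 (plus strand), is shown with the match in capitals.
Tef: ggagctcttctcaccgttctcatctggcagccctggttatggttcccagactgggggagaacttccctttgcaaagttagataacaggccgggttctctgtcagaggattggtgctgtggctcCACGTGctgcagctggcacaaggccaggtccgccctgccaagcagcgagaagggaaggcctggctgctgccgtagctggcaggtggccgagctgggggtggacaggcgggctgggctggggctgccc

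The list of glucocorticoid receptor targets, which also holds the receptor gene *Nr3c1*, had 12 of 14 members lower, with a median of -0.22. Its list score did not overlap between groups (0.10 to 0.14 in WT and -0.15 to -0.04 in U9-KO). At an unadjusted p under 0.05, 5 members were lower and *Cdkn1a*, a cell cycle inhibitor, was higher (0.52 ± 0.20 SE). *Zbtb16*, a transcription factor that glucocorticoids induce, was at 2189, 3065 and 3950 in WT and 1686, 1274, 1982 and 1905 in U9-KO (-0.82 ± 0.21 SE). *Sgk1*, a kinase they induce, was at 1238, 1003 and 998 in WT and 743, 837, 828 and 993 in U9-KO. The receptor gene *Nr3c1*, the other member that was not lower, differed by 0.14 ± 0.08 (SE). Leaving out any 1 mouse kept the list's median between -0.28 and -0.15, and without WT male 1 or WT male 2 there were 3 lower genes at such a p.

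Chaperone genes were mixed, with 9 of 14 heat shock genes higher in U9-KO, 5 lower and a median of 0.15. Of these 3 were higher at an unadjusted p under 0.05 (6 without WT male 1, and 2 without WT male 2, U9-KO male 2 or U9-KO male 3). *Chordc1*, a partner of HSP90, was at 1372, 1136 and 1278 in WT and 1566, 1691, 1636 and 1697 in U9-KO (0.39 ± 0.08 SE). *Hsp90aa1* was at 5606, 5546 and 5744 in WT and 6084, 7054, 6901 and 6531 in U9-KO, and *Hsph1* was the third such gene. The inducible chaperones *Hspa1a*, *Hspa1b* and *Hspb1*, named after their values were seen, had differences of -0.10, -0.18 and -0.18 with overlapping groups. *Hspa5*, the chaperone of the endoplasmic reticulum, was at 10023, 10403 and 9636 in WT and 12400, 13000, 10964 and 11414 in U9-KO (0.25 ± 0.09 SE), the only such gene among 18 of endoplasmic reticulum stress, of which 12 were higher and 6 lower. Cytosolic ribosomal proteins did not share a direction, with 43 of 87 higher and a median of -0.00059. At an unadjusted p under 0.05 there were 4 higher and 2 lower, and without WT male 2 there were 2 higher and 16 lower.

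**Figure D4:**
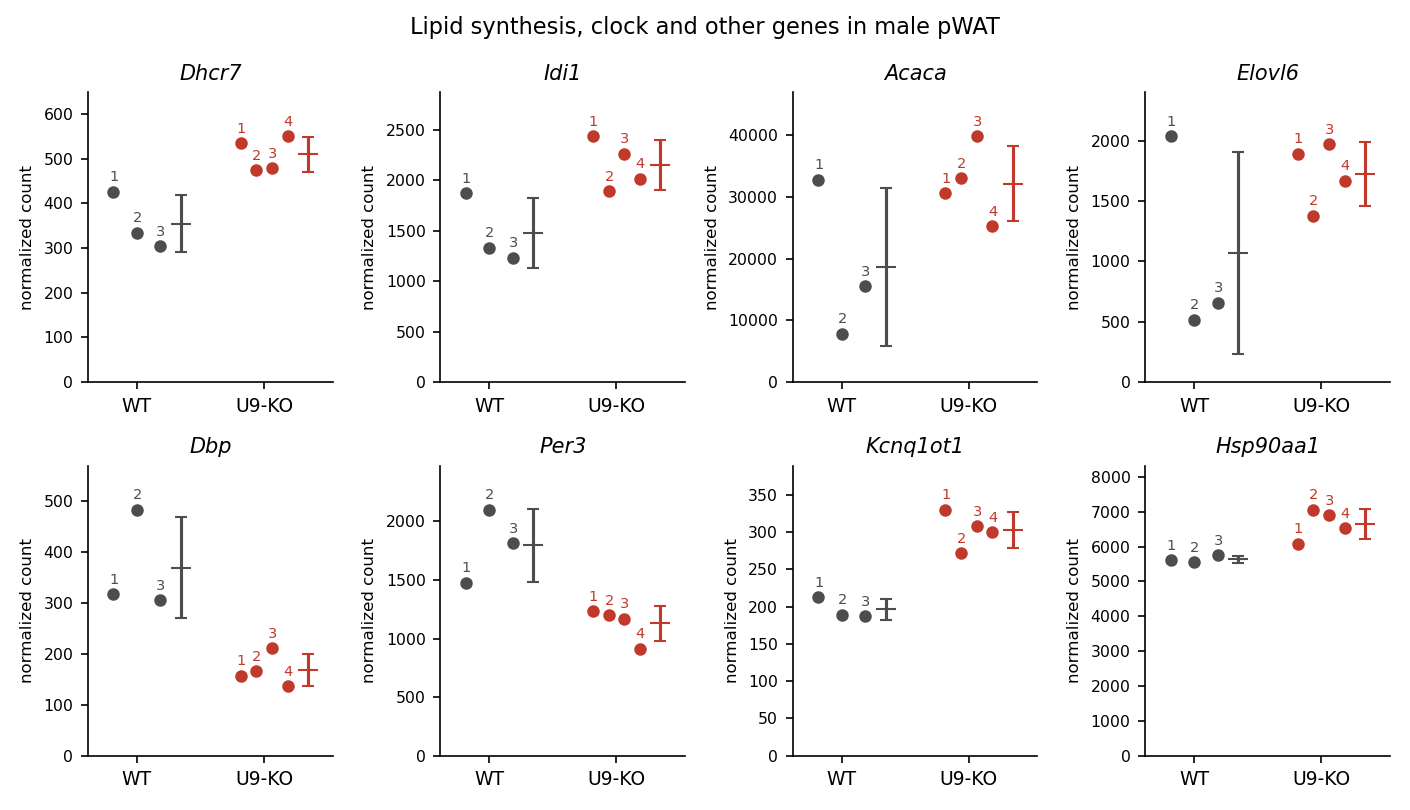
Normalized counts of 8 genes of lipid synthesis, the clock and other groups in 3 WT (grey) and 4 U9-KO (red) male mice, with replicate numbers and mean ± SD. WT male 1 lies within the U9-KO range for *Acaca* and just above it for *Elovl6*, while the groups are apart for *Dhcr7*, *Idi1*, *Dbp*, *Per3*, *Kcnq1ot1* and *Hsp90aa1*.

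Several of the genes with the smallest p belonged to none of these groups. *Kcnq1ot1*, an imprinted antisense RNA within *Kcnq1*, was at 213, 189 and 187 in WT and 330, 272, 308 and 300 in U9-KO (0.62 ± 0.11 SE, limma adjusted p = 0.539). The kit kept strand, but the counting is not stated to use it, so reads of *Kcnq1* could be included. It was the only one of 22 tested imprinted genes with an unadjusted p under 0.05, while without WT male 1 there were 2 higher and 5 lower. *Gm21887* on chromosome X and *Gm47283* on chromosome Y ran in parallel over the mice. *Gm21887* was at 1721, 1497 and 2016 in WT and 2327, 2978, 3543 and 3373 in U9-KO, and *Gm47283* at 2214, 1762 and 2426 in WT and 2722, 3522, 4147 and 4154 in U9-KO. If they are near-identical copies, reads can be split between them, so they are counted as 1 uncertain signal. *Tshr*, the thyrotropin receptor, was at 4484, 4244 and 4184 in WT and 5671, 5654, 5019 and 5442 in U9-KO. *Igfbp7*, a secreted protein of blood vessels, was at 10481, 9604 and 9315 in WT and 7269, 7388, 7419 and 7944 in U9-KO. The other higher genes of the 12 with the smallest p were *Gm7964*, *Fam126b*, *4632427E13Rik*, *Morc4*, *Leo1*, a subunit of the PAF1 transcription elongation complex, and *Brix1*, a ribosome assembly factor, with differences between 0.38 and 0.70. The other lower ones were *Cep85*, a centrosomal protein, and *Ubald2*, at -0.72 and -0.49. In all of them the groups were apart.

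Large positive differences were few. At an unadjusted p under 0.05, 16 genes were higher by more than 1 on the log2 scale and 62 lower by more than 1, of which 21 were antibody genes. Whatever their p, 43 of the 16564 genes tested were higher by more than 1 and 128 lower, 45 of the lower ones antibody genes. A gene high in 1 genotype alone could pass the filter on the mean, so these counts by direction are not separate support. *Hsd3b1*, a steroid-making enzyme, had the largest positive difference, with 2, 0 and 0 in WT and 73, 6, 2 and 46 in U9-KO, so WT male 1 and U9-KO male 3 had the same value. The next 4, *Gm44005*, *Dnaaf2*, *Gm12996* and *A530064N14Rik*, did not exceed 42 normalized counts.

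The neighbourhood of the deleted gene was looked at because a deletion can affect nearby genes. Of 27 tested genes within 1 Mb of *U90926*, 14 were higher and 13 lower in U9-KO. At an unadjusted p under 0.05, *Parm1* and *G3bp2* were higher (background 3.81%) and 0 genes were lower (background 4.58%). *Parm1*, which encodes a mucin-like membrane protein, lies 0.583 Mb from *U90926* and had the second smallest p of all higher genes. It was at 463, 353 and 377 in WT males and 641, 638, 670 and 549 in U9-KO males, with the groups apart (0.66 ± 0.11 SE, limma adjusted p = 0.539). With the groups apart, a two-sided exact permutation test had to give p = 0.0571, the smallest that 3 against 4 mice allow. This value is therefore no further support. In the 10 females, which did not enter this choice, *Parm1* was at 474, 774 and 1700 in WT (lowest, median, highest). In U9-KO females it was at 566, 1749 and 5078. These overlapped, and the exact permutation p was 0.214. *G3bp2*, a stress granule protein, was at 7414, 5136 and 5800 in WT males and 7641, 7082, 7131 and 7439 in U9-KO males. *Uso1*, the nearest gene on one side, differed by 0.11 ± 0.06 and *Ppef2*, the nearest on the other, by -0.34 ± 0.48 (SE). Among 56 genes within 5 Mb, 2 were higher and 3 lower at an unadjusted p under 0.05. These counts were near the background shares of 3.81% and 4.58%.

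**Figure D5:**
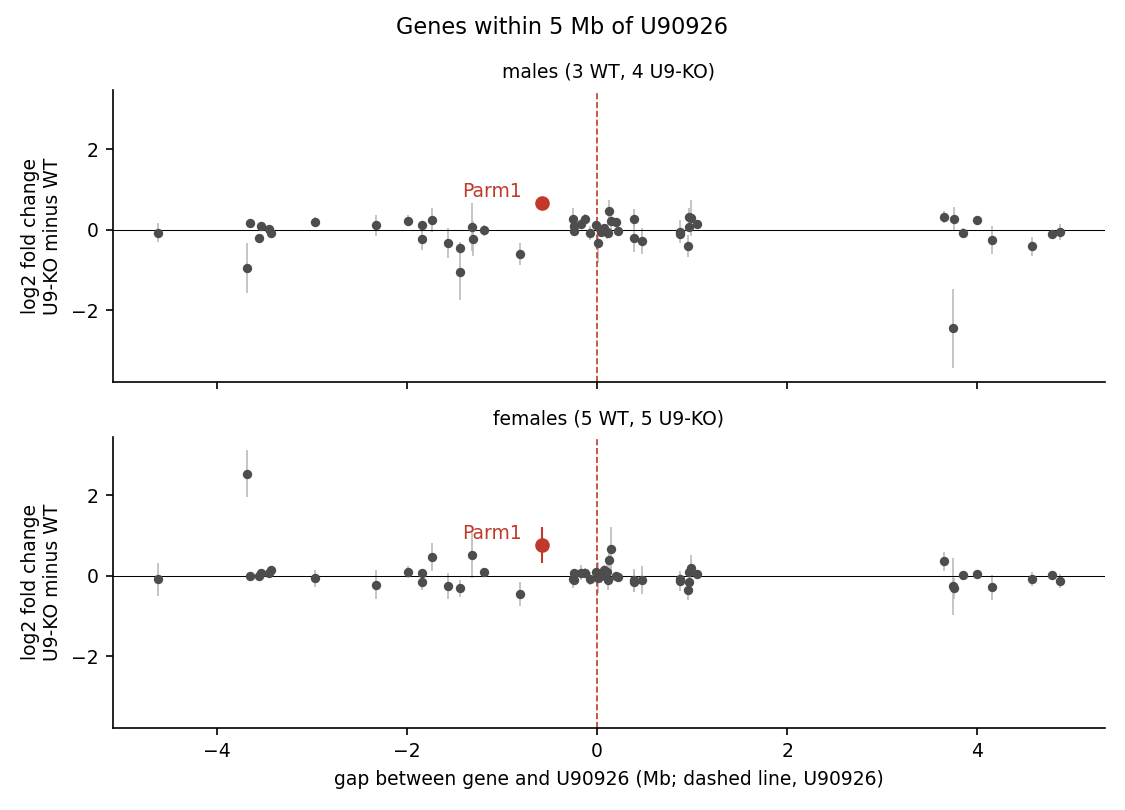
Log2 difference between U9-KO and WT (± SE) of genes within 5 Mb of *U90926*, in males (top) and females (bottom), against the gap to *U90926* in Mb. *Parm1*, in red, is at 0.66 in males and 0.77 in females, and most other points lie near 0.

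Other cell types of the tissue were compared in the same way. Of 20 endothelial genes 15 were lower with a median of -0.14, and 4 had an unadjusted p under 0.05 (9 without WT male 1). The markers *Pecam1*, *Cdh5* and *Kdr* summed to 15797 to 18988 in WT and 15381 to 18238 in U9-KO. Progenitor genes (10 of 15 lower, median -0.18), collagens and matrix (17 of 26 lower, median -0.04) and mesothelium (7 of 13 lower, median -0.03) each had at most 2 lower members at an unadjusted p under 0.05, though without WT male 1 collagens and matrix had 7 and progenitors 4. Blood genes were lower in all 8 cases, 1 at an unadjusted p under 0.05 (5 without WT male 2). The haemoglobin genes *Hba-a1* and *Hbb-bs* with *Alas2* summed to 88241, 47473 and 86487 in WT and 34863, 60924, 70277 and 58473 in U9-KO, so that WT male 2 was among the U9-KO mice. The part of blood content in the leukocyte differences was not tested. Proliferation genes were lower in 20 of 25 cases with 0 at an unadjusted p under 0.05 in limma's test, and their median was 0.03 without WT male 2 and -0.47, with 4 lower at such a p, without WT male 1. Immediate early genes, which respond within minutes to stress or handling, were lower in 12 of 15 cases, again with 0 at such a p in limma's test.

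The males were set beside the females, which share no mouse with them. The difference between the sexes in the genotype effect was tested with limma over 17521 genes, of which 0 (0%) passed after adjustment and 492 (2.81%) before it. Of the 24 male genes with the smallest p in either direction, 15 had the same sign in females and 0 of these had an unadjusted p under 0.05 there in limma's test. Of the other 9, *4632427E13Rik* had such a p with the opposite sign. For 14 of the 24 the difference between the sexes had an unadjusted p under 0.05, in genes chosen for their difference in males. Over the 1382 male genes at an unadjusted p under 0.05 that were tested in both sexes the sign was shared for 64.1%, and over all genes for 58.0%. The lipid synthesis lists had positive medians in both sexes (0.61 in males and 0.81 in females for lipogenesis), whereas the leukocyte, B cell and antibody lists had negative medians in males and medians of 0.09, 0.07 and 1.65 to 1.85 in females. The difference between the sexes was tested gene by gene and not for the lists.

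In limma's test, whether any gene passed the adjusted threshold depended on how the WT mice entered the fit. When WT male 1 was left out, 54 of 16565 genes (0.326%) passed limma's adjusted threshold, 34 higher and 20 lower in U9-KO. They included *Acly*, *Elovl6*, *Me1*, *Slc25a1* and *Tkt* of fatty acid synthesis, *Dhcr7* and *Idi1* of cholesterol synthesis, *Pik3r1* and *Parm1* among the higher genes and *Laptm5* among the lower. Several genes known only by Gm numbers were also among the higher ones, with nearly equal differences from 0.52 (*Gm10359*) to 0.54 (*Gm12070*). If they are similar copies, reads can be split between them, so the 34 may not be separate signals. *Elovl6* was at 2037, 519 and 658 in WT males 1 to 3 and at 1379 to 1971 in U9-KO. The WT group then held WT males 2 and 3, both low in lipogenesis. Leaving out any other single mouse gave 0 such genes. With all 7 mice kept but weighted by their estimated quality, which put most weight on WT male 3, 1612 genes passed.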

How the data were processed

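Total RNA from whole pWAT was sequenced as stranded paired-end reads. The authors trimmed reads with trim_galore, aligned them with STAR (2.7.3a per the submitters' processing notes, on GRCm38), obtained gene counts by summarizeOverlaps (Union mode) and scaled these with DESeq2 (1.28.1). Each deposited value is thus a score, a count that the authors divided by a size factor and rounded. As these are not raw counts, no count model was used. A size factor hides depth, which was estimated here from the spacing of low values.

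Of 55401 gene identifiers 55141 were named from GENCODE M21. Libraries were grouped by their labels, and 2 male libraries whose columns carry other numbers were named by label. A table of the whole series repeats the same values and was not used. limma 3.58.1 in R 4.3.3 was fitted to log2(normalized count + 1) of 3 WT and 4 U9-KO males with an empirical Bayes trend, for genes with a mean of at least 10, with Benjamini-Hochberg adjustment over all genes tested and a threshold of 0.05. A fit of all 17 libraries gave the interaction of sex and genotype. The fit and the depth estimate were tested on simulated data. Exact permutation tests used scipy 1.17.1 under Python 3.11.15.

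The comparison, the 49 gene lists and the rule for named genes were chosen with earlier results of these data known, so no list is independent evidence. They covered immune cells, antibody segments and constant regions, lipid and energy metabolism, adipocyte identity, the clock, hormone response, stress and the other cell types of the tissue. By the rule, the text could name *U90926*, the 12 genes with the smallest p in each direction, the 5 largest and 5 most negative differences at an unadjusted p under 0.05, and in each list the member with the highest mean and that with the smallest p. Other genes, except cell type markers and those that break down a count of at most 5, were named after their values were seen. Promoter windows are RefSeq's. Replicate numbers did not pair the mice, with correlations of -0.12, -0.01 and -0.01 between same-numbered WT and U9-KO deviations. Depth limits genes with few reads, and p-values cover the spread between these mice. Alternatives were other filters, pseudocounts, scalings, weights, eBayes settings, a replicate block, all libraries in 1 fit and leaving out each mouse.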

Additional observations from a re-analysis of the deposited data

Results flagged for a closer look

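In the U9-KO males a mouse far from the other 3, by Dixon's criterion for 4 values, was found for 8 of 110 genes examined, where chance alone gives about 5.5. U9-KO male 2 stood apart with 1187 normalized counts of *Arhgap45*, 13 of *Ighv7-1*, 2 of *Igkv8-27* and 30290 of *Hspa8*, the constitutive HSC70 chaperone. U9-KO male 1 stood apart with 61 of *Igkv14-126* and 1 of *Ighv14-2*. For *Igkv8-27* and *Ighv14-2* the other 3 U9-KO mice were without counts, so any count at all meets the criterion there. U9-KO male 3 had the low value of 2405 for *Laptm5*, and U9-KO male 4 the value of 9013 for *Rgs5*, a pericyte gene. The WT group, with 3 mice, was too small for this criterion.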

How the results depend on the processing

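With a Benjamini-Hochberg adjusted p under 0.05 in limma, array weights gave 1612 genes in place of 0, with most weight on WT male 3, and leaving out each mouse gave 0 to 54, the 54 without WT male 1. An unadjusted p under 0.05 was found for 5117 genes with array weights, 732 when all 17 libraries shared a variance and 2010 without a filter on low values, and leaving out each mouse gave 964 to 3031, the most without WT male 1. Genes whose groups did not overlap numbered 1988 to 4552 with a mouse left out, as fewer mice overlap less often. For the interaction of sex and genotype 0 genes passed the adjusted threshold in every alternative run. The replicate block, with numbers that did not pair the mice, gave 0 genes at an adjusted and 1172 at an unadjusted p under 0.05.

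Among 1945 alternative values of the 109 named genes 42 changed sign, in 20 genes, and 62 passed the adjusted threshold, 55 with array weights and 7 without WT male 1. Among 881 alternative list medians 42 changed sign, in 16 of 49 lists, those of the antibody lists with array weights included, and with a mean of at least 50 the epididymis and testis list had no gene left. Depth limits genes with few reads, such as *U90926* itself. The cause of these changes was not tested.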
